A study of Danio rerio with 18 samples.

Results

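The nuclear-encoded genes of oxidative phosphorylation were followed in ribosome-bound RNA of keratinocytes, neutrophils and macrophages of zebrafish larvae. Members were chosen by symbol alone, ignoring case: symbols beginning with nduf, a letter a, b, c, s or v and a digit, with sdha to sdhd, with uqcr, with cox and a digit from 4 to 8, or with atp5, together with cyc1. This gave 96 of the 31953 genes in the tables, of which 26121 had a symbol. By symbol, 40 members belonged to complex I, 9 to complex II, 9 to complex III, 18 to complex IV and 20 to complex V. Of the 96, 90 code for subunits. The pattern also took in 4 assembly factors of complex II (SDHAF2, SDHAF3, SDHAF4 and sdhaf1) and 2 genes of the ATP synthase inhibitory factor (atp5if1a and atp5if1b). Symbols in capitals are those that the name table gives to zebrafish genes after their human counterparts. NDUFA4 and its relatives were counted under complex I by symbol, although the NDUFA4 protein is now placed in complex IV.

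Oxidative phosphorylation takes place at the inner membrane of mitochondria. Complexes I and II pass electrons from NADH and succinate to ubiquinone, complex III passes them on to cytochrome c and complex IV to oxygen. Complexes I, III and IV pump protons as they do so, and complex V, the ATP synthase, makes ATP from the gradient. The nuclear subunits are translated on cytosolic ribosomes and imported, while a smaller set is encoded by mitochondrial DNA and translated on mitochondrial ribosomes. Complex II is built from nuclear genes alone. Neutrophils are known for their reliance on glycolysis.

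Translating ribosome affinity purification (TRAP) isolates RNA bound to ribosomes that carry an EGFP-tagged L10a subunit. Larvae were injected with a construct that expresses HRas (control) or the constitutively active HRasG12V from the keratinocyte promoter krt4. For keratinocytes, wild type larvae also received krt4-driven tagged L10a, so construct and tag were mosaic. For neutrophils and macrophages, the construct was injected into Tg(LyzC:EGFP-L10a) and Tg(mpeg1:EGFP-L10a) larvae, so the leukocytes themselves were not the cells targeted by the krt4 promoter. Each of the 6 groups had 3 libraries, each from about 50 pooled larvae at 3 days post-fertilization, collected on 3 separate days. The replicate number is read here as the collection day. That a number stands for the same day in every group is not stated in the labels or the study. Whether larvae of a day came from the same clutches is not given in the sources used here, so p-values measure the spread between these pools.

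Macrophage HRas control replicate 3 held 16990 expected counts in all, 10 of them on 6 members, and was left out. The other 17 libraries held 6206924 to 14781123 counts (median 8371955), of which the 10 most abundant features took 72.4% to 94.7%. The members drew 1265 to 24287 counts per library (median 5322), and 82 to 95 of the 96 were detected (median 90). The fewest came from keratinocyte HRas control libraries, with 1820, 1265 and 2454 counts in replicates 1, 2 and 3, and the second keratinocyte HRasG12V library had 1676. After the filter on low counts 88 members were tested among 16011 genes: 39 of complex I, 7 of II, 9 of III, 13 of IV and 20 of V. The 8 that did not pass were ndufa9b, cox7a1, cox8b, cox4i1l, SDHAF4 and the less abundant of the genes that shared the symbols COX5B, COX6A1 and SDHD. The figures for members are for these 88 unless stated otherwise. Levels are counts set to a common library total with TMM scaling (CPM), which do not correct for gene length, and differences are log2 differences fitted to these counts with their standard errors (SE).

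The labels were checked against marker genes. The keratin krt4 was at 2030 to 3490 CPM in keratinocyte control libraries, 550 to 661 in neutrophil and 893 to 968 in macrophage controls. With HRasG12V it was at 2370 to 2510 CPM in keratinocytes, 593 to 1210 in neutrophils and 1380 to 2030 in macrophages. The macrophage range with HRasG12V thus came close to the lowest keratinocyte control. The sum over 15 keratinocyte markers was 3050 to 5020 CPM in keratinocytes, 788 to 1670 in neutrophils and 1160 to 2580 in macrophages, so it was lower in leukocyte libraries but not absent. The lysozyme gene lyz reached 2.08 to 46.3 CPM in neutrophil libraries and at most 1.13 in keratinocyte libraries. In macrophage libraries it reached up to 2.76, above the lowest neutrophil library. Of 8 neutrophil markers tested, 5 were higher and 0 lower in neutrophils against keratinocytes at an adjusted p of at most 0.05 (edgeR's quasi-likelihood test). Against macrophages, 3 were higher and 1 was lower in neutrophils. The macrophage transcription factor irf8 was at 1.51 to 13.3 CPM in macrophage libraries and at most 0.704 in keratinocytes and 0.123 in neutrophils. The libraries are thus bulk samples that were enriched for a cell type, in which fewer cells of a type and less RNA per cell cannot be told apart.

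In all 5 complexes the mean summed level was lowest in keratinocytes with HRas control. Over all 96 members the sum in that group was 379.1, 357.8 and 342.6 CPM in replicates 1, 2 and 3 (359.8 ± 18.3, SD, n = 3). With HRasG12V the keratinocyte libraries held 637.8, 509.9 and 486.3 CPM (544.7 ± 81.5, SD, n = 3). All 3 lay above all 3 controls. The neutrophil sums were 737.9, 659.2 and 654.1 CPM with HRas control (683.7 ± 47.0, SD, n = 3) and 694.9, 667.8 and 641.3 with HRasG12V (668.0 ± 26.8, SD, n = 3). These 6 neutrophil libraries spanned a narrow band that lay above every keratinocyte library, though only just (641.3 against 637.8 CPM). By complex this held in complex I alone, with at least 126.7 CPM in neutrophils and at most 117.3 in keratinocytes. In complexes II, III, IV and V the neutrophil and keratinocyte libraries overlapped. Macrophages had 563.2 and 722.9 CPM with HRas control, and 849.8, 1049 and 446.3 with HRasG12V. The macrophage HRasG12V libraries thus held both the highest sum of the 17 and, in replicate 3, a sum below every neutrophil library and below the 3 keratinocyte HRasG12V libraries.

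**Figure D1:**
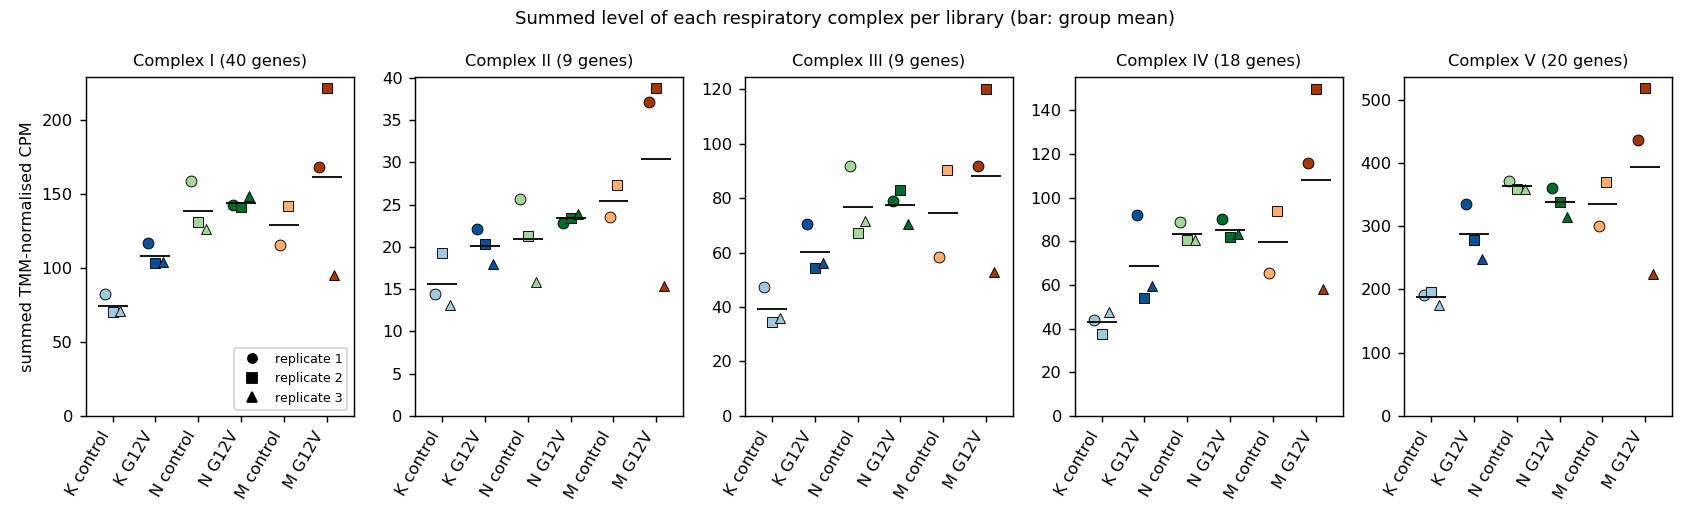
Summed level of each respiratory complex in 17 libraries, as TMM-normalised CPM on linear axes from 0, by cell type (K keratinocytes, N neutrophils, M macrophages) and construct. Points are libraries, with a marker for each collection day, and bars are group means; in keratinocytes every HRasG12V point lies above every control point in complexes I, III, IV and V, while in complex II they overlap.

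The ATP synthase made up the greatest part of these sums. Complex V reached 237.4 ± 61.9 CPM in keratinocytes (SD, n = 6), 350.5 ± 20.7 in neutrophils (n = 6) and 369.7 ± 114.6 in macrophages (n = 5). Complex I followed with 91.5 ± 19.7, 141.7 ± 11.9 and 148.7 ± 49.2 CPM in the same order. Complex II was lowest with 17.9 ± 3.49, 22.2 ± 3.42 and 28.5 ± 9.71 CPM. The sums are not compared between complexes per gene, since they add different numbers of genes of different length. Corrected for length, the highest members were ATP5F1B, the catalytic beta subunit of the ATP synthase, at 44.2 CPM per kilobase and COX4I1, subunit 4 of cytochrome c oxidase, at 37.2. ATP5F1A, the alpha subunit, had 33.5 and atp5if1a, a gene of the factor that holds back ATP hydrolysis by the synthase, 29.5 CPM per kilobase.

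Neutrophils against keratinocytes: 22 of the 88 members were higher in neutrophils past the threshold of 0.05 on the adjusted p (25.0%) and 0 were lower, with both constructs averaged and edgeR's quasi-likelihood test run over all genes. Of all 16011 genes, 6.34% were called higher and 6.36% lower. The fitted difference was above 0 for 84 of the 88 members, with a median of 0.66, against 0.02 over all genes tested. By complex, 9 of 39 members of complex I were called (median 0.70), 0 of 7 of complex II (0.27), 3 of 9 of complex III (0.65), 3 of 13 of complex IV (0.79) and 7 of 20 of complex V (0.69). Beside this, 13 of 15 keratinocyte markers and 9 of 16 skeletal muscle genes were lower in neutrophils, while 8 of 10 neuronal genes were higher, with a summed neuronal level of 550 to 771 CPM in neutrophils against 274 to 373 in keratinocytes. The part of these cell types in the result was not tested.

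The member with the smallest adjusted p was atp5mc1, a gene of the c subunit that forms the rotor ring of the ATP synthase. Its level in keratinocytes was 6.46, 9.34 and 7.54 CPM with HRas control and 9.44, 5.17 and 7.58 with HRasG12V, and in neutrophils 16.9, 18.5 and 34.9 with HRas control and 15.8, 13.8 and 16.7 with HRasG12V. Every neutrophil library was above every keratinocyte library, and the difference was 1.29 (SE 0.249, adjusted p = 0.00046, edgeR's quasi-likelihood test). ATP5F1D, the delta subunit of the central stalk, stood at 5.21, 1.98, 3.49, 5.35, 7.91 and 4.56 CPM in the keratinocyte libraries and at 12.2, 5.77, 15.9, 8.35, 8.48 and 9.63 in the neutrophil libraries, controls first in each. A single keratinocyte library, HRasG12V replicate 2, lay above 1 neutrophil library, and the difference was 1.11 (SE 0.283, adjusted p = 0.00741). The abundant ATP5F1B had 48.1, 56.6, 40.9, 91, 63.3 and 68.3 CPM in keratinocytes and 118, 108, 74.6, 89.6, 95.9 and 81 in neutrophils, controls first. The keratinocyte HRasG12V library of replicate 1 overlapped with the neutrophils here, the controls did not, and the difference was 0.64 (SE 0.166, adjusted p = 0.00811).

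In complex I the leading members were NDUFA8 and NDUFB9, both accessory subunits. NDUFA8 had 0.417, 0.283 and 0.977 CPM in keratinocyte controls (2, 1 and 7 counts), 2.82, 1.83 and 2.74 in keratinocytes with HRasG12V (20, 6 and 39 counts), and 3.06, 2.92, 4.16, 4.82, 3.33 and 3.46 CPM in the neutrophil libraries, controls first. The groups did not overlap, with a difference of 1.55 (SE 0.372, adjusted p = 0.00463, edgeR's quasi-likelihood test); the keratinocyte side rested on few counts. NDUFB9 had 3.96, 1.41, 1.4, 1.69, 4.26 and 2.1 CPM in keratinocytes and 7.76, 3.87, 7.28, 5, 4.79 and 5.93 in neutrophils. Neutrophil HRas control replicate 2 fell within the keratinocyte range, and the difference was 1.27 (SE 0.317, adjusted p = 0.00639). Other members called, named here after their values were seen, included ndufa11, ndufa4b, NDUFB8, NDUFS4, NDUFV1 and NDUFV2 of complex I, UQCR10, UQCRC1 and UQCRH of complex III, COX5B, cox6a1 and cox6b1 of complex IV, and ATP5MG, atp5mc3b, atp5meb and atp5mf of complex V. Their differences ran from 0.67 for UQCRC1, a core protein of complex III, to 2.18 for ndufa11, an accessory subunit of the membrane arm, with adjusted p-values of 0.0156 to 0.0489.

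Macrophages against keratinocytes: 9 of the 88 members were higher in macrophages (10.2%) and 0 lower, against 2.65% called higher and 2.31% lower among all genes. The difference was above 0 for 75 of 88, with a median of 0.71 against 0.06 over all genes. The 9 were 5 of complex I (NDUFA8, NDUFV1, ndufa11, ndufa4b and NDUFA4) and 4 of complex V (atp5mc1, ATP5F1D, ATP5MG and atp5f1e). Medians were 0.64 in complex I, 0.80 in II, 0.74 in III, 0.81 in IV and 0.84 in V. Complexes II, III and IV thus held no call at medians above that of complex I and below that of complex V. The neutrophil and the macrophage comparisons share the 6 keratinocyte libraries and are thus not independent. In macrophages, 11 of 15 keratinocyte markers and 3 of 16 muscle genes were lower, and the summed neuronal level was 355 to 437 CPM.

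Here atp5mc1 had the smallest adjusted p, with 15.7 and 21.2 CPM in macrophages with HRas control and 24.2, 41.9 and 11.2 with HRasG12V. All 5 lay above the keratinocyte libraries given above, and the difference was 1.48 (SE 0.268, adjusted p = 0.000286, edgeR's quasi-likelihood test). NDUFV1, the flavoprotein subunit through which NADH enters complex I, had 4.17, 3.11, 4.61, 7.75, 7 and 6.18 CPM in keratinocytes, controls first, and 11.9, 12, 11.9, 15.2 and 8.05 in macrophages. These groups did not overlap either, although the lowest macrophage library, HRasG12V replicate 3, came close to the highest keratinocyte library, and the difference was 1.12 (SE 0.244, adjusted p = 0.00275). NDUFA8 stood at 4.99 and 2.83 CPM in macrophage controls and at 5.16, 3.5 and 2.68 with HRasG12V, with a difference of 1.63 (SE 0.394, adjusted p = 0.00812). For ATP5F1D the macrophage libraries had 9.08, 10.9, 8.47, 16.4 and 6.04 CPM and the difference was 1.13 (SE 0.302, adjusted p = 0.0197). For ndufa4b, a zebrafish copy of NDUFA4, they had 9.98, 13.1, 9.02, 13.7 and 5.29 CPM against 2.13 to 7.32 in keratinocytes, with a difference of 1.14 (SE 0.305, adjusted p = 0.0206).

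These counts of calls depended on single libraries. For neutrophils against keratinocytes, the 22 calls became 12 without keratinocyte HRas control replicate 2, 12 without keratinocyte HRasG12V replicate 2, 14 without neutrophil HRas control replicate 1, 10 without neutrophil HRas control replicate 3 and 7 without neutrophil HRasG12V replicate 3. With each of the 17 libraries left out in turn the number ranged from 7 to 30, with 8.65% to 14% of all genes called in either direction, and the median difference from 0.60 to 0.77. For macrophages against keratinocytes, the 9 calls became 3 without macrophage HRas control replicate 2, 3 without macrophage HRasG12V replicate 2, 5 without macrophage HRasG12V replicate 1, 5 without keratinocyte HRas control replicate 2, 5 without keratinocyte HRasG12V replicate 2, and 30 without macrophage HRasG12V replicate 3, with no lower call in any of these and 2.35% to 6.26% of all genes called in either direction. The median ranged from 0.57 to 0.92 with single libraries left out, and without the day of replicate 2 it was 0.25 with 0 calls. The call of atp5mc1 in neutrophils held in 31 of 32 alternative settings, with adjusted p-values of 1.22e-07 to 0.0929, and was lost only with the HRasG12V libraries alone. In macrophages it held in 30 of 32 and was lost with the HRas control libraries alone and without the day of replicate 2. Other named calls were less stable. In neutrophils, ATP5F1D held in 30 of 32 settings (adjusted p up to 0.429), NDUFA8 in 28 of 31 (up to 0.508), NDUFB9 in 28 of 31 (up to 0.186) and ATP5F1B in 27 of 32 (up to 0.632), the last also lost with all 18 libraries. In macrophages, NDUFV1 held in 29 of 32 (up to 0.281), NDUFA8 in 26 of 31 (up to 0.7, lost without macrophage HRas control replicate 1), ATP5F1D in 25 of 32 (up to 0.422) and ndufa4b in 24 of 32 (up to 0.743). The calls of ATP5F1D and ndufa4b in macrophages were lost without keratinocyte HRas control replicate 2, macrophage HRas control replicate 2 or macrophage HRasG12V replicate 2, and that of ndufa4b also without keratinocyte HRasG12V replicate 2.

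**Figure D2:**
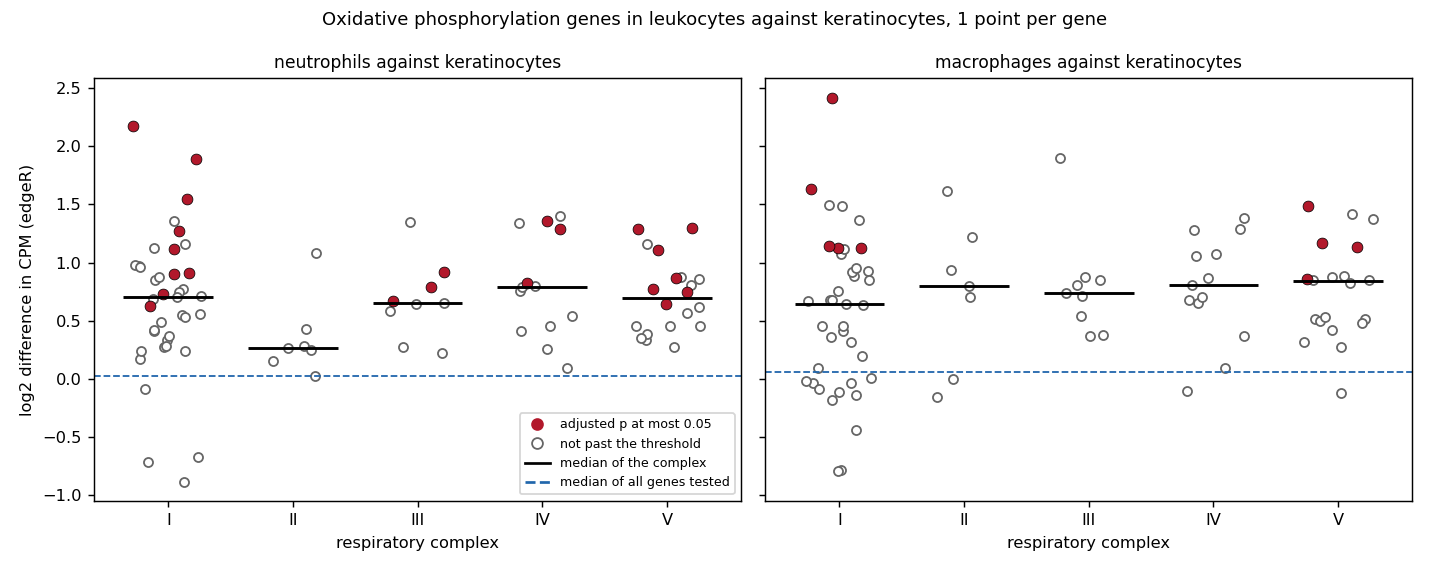
Log2 differences of the 88 tested members by complex, neutrophils against keratinocytes and macrophages against keratinocytes, from edgeR's fit. Each point is a gene, filled where its adjusted p was at most 0.05 (22 and 9 genes), the bars are medians per complex and the dotted line marks the median of all genes tested (0.02 and 0.06).

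The test found no difference between neutrophils and macrophages in these genes. Of 88 members, 0 were called at an adjusted p of at most 0.05 by edgeR's quasi-likelihood test and 0 had an unadjusted p under 0.05, against 4.67% and 15.8% of all genes, and DESeq2 called 0 as well. The median difference was -0.02. The smallest adjusted p-values belonged to cox5aa (0.64 higher in neutrophils, adjusted p = 0.327), NDUFA6 (0.73, adjusted p = 0.328) and ATP5PO, part of the stator stalk (-0.76, adjusted p = 0.336). By leaving out single libraries the median moved between -0.205 and 0.18, and without the day of replicate 2 it was 0.40, so it had no stable sign.

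The constructs were also taken apart, since the comparison above averages them. Day by day, the median log2 ratio of neutrophils to keratinocytes over members was 1.05, 0.98 and 0.76 in replicates 1, 2 and 3 with HRas control, and 0.18, 0.66 and 0.41 with HRasG12V. Over all genes tested it was 0.00, 0.19 and -0.27 with HRas control, and 0.03, 0.21 and -0.07 with HRasG12V. All 6 medians over members were above 0, and on each day the members' ratio was greater with HRas control. Macrophages to keratinocytes gave 0.64 and 1.11 with HRas control, and 0.45, 1.44 and -0.09 with HRasG12V, so that replicate 3 reached no difference. Over all genes tested the ratios were 0.03 and 0.19 with HRas control, and 0.05, 0.22 and 0.03 with HRasG12V. With the control libraries alone 8 members were called for neutrophils and 2 for macrophages, against 4.58% and 1.56% of all genes in either direction. With the HRasG12V libraries alone the members called were 0 and 1, against 4.52% and 2.41% of all genes. The difference between constructs was tested as the difference of HRasG12V effects, given further on.

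Length moved with these results. The 96 members were short, with a mean transcript length of 870 bases and a median of 705 (383 to 2524). The 88 tested had a mean of 890 and a median of 721, against a mean of 2713 over all genes tested. Over all 96, mean lengths were 836 bases in complex I, 1369 in II, 1087 in III, 618 in IV and 843 in V. Of the 88 members tested, 64 (72.7%) were at most 1000 bases long, against 11% of all genes tested. As a whole, genes of that length leaned higher in leukocytes, with a median over all 1767 of 0.24 in neutrophils and 0.21 in macrophages, against 0.00 and 0.05 for longer genes. The short members had medians of 0.77 and 0.82, and the 24 longer members 0.42 and 0.58. With a length trend removed from every library before the fit, the short members kept a median of 0.61 in neutrophils and 0.68 in macrophages, while 10 of 88 members were called in neutrophils, where 13% of all genes were in either direction, and 6 of 88 in macrophages, where 5.15% were. The neutrophil share is then near that of all genes in either direction. In the main fit the calls among all genes split into 6.34% higher and 6.36% lower. A share of higher calls alone is not given for the fit without the length trend, so these shares are not like for like.

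**Figure D3:**
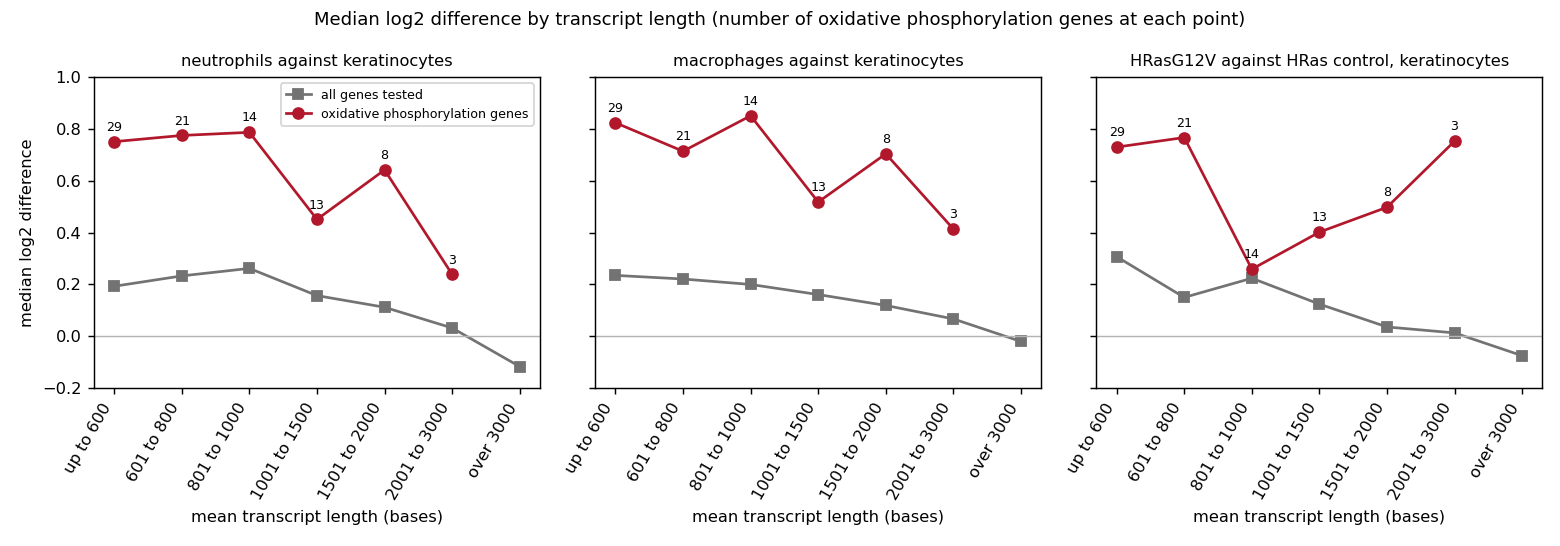
Median log2 difference by transcript length class (bases) for all genes tested and for the members, in neutrophils against keratinocytes, macrophages against keratinocytes and HRasG12V against HRas control in keratinocytes. Lines join class medians; short genes lie higher among all genes (0.24, 0.21 and 0.23 at up to 1000 bases), and the members have 0.77, 0.82 and 0.63. Numbers at the points count members, and with HRasG12V the class that ends at 1000 bases nearly meets that of all genes (0.26 and 0.22).

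HRasG12V against HRas control in keratinocytes: edgeR's quasi-likelihood test called 0 of 88 members at the adjusted threshold, where 0.262% of all genes passed, and DESeq2 called 0. At an unadjusted p under 0.05, 23 members were higher and 0 lower, against 4.53% higher and 2.7% lower among all genes. The fitted difference was above 0 for 73 of 88 and its median was 0.61, with 0.01 over all genes. The medians were 0.55 in complex I, 0.39 in II, 0.48 in III, 0.98 in IV and 0.62 in V. The unadjusted p was under 0.05 in 7 members of complex I, 1 of II, 3 of III, 5 of IV and 7 of V. Leaving out single libraries gave medians of 0.44 to 0.79 and 0 calls throughout.

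The member nearest to the threshold was atp5if1a. Its keratinocyte libraries had 6.04, 10.2 and 8.93 CPM with HRas control and 19, 17.1 and 20.1 with HRasG12V. The groups were well apart, with a difference of 1.17 (SE 0.304, adjusted p = 0.148, by edgeR's quasi-likelihood test). The adjusted p ranged from 0.0403 to 1.0 over the alternatives and passed only when all genes with at least 1 count were kept. An exact permutation test of 3 against 3 libraries gave a two-sided p of 0.1, the smallest it allows. NDUFA8, with the counts given above, had a difference of 2.01 (SE 0.588, adjusted p = 0.248).

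Among the abundant members the catalytic ATP5F1B had a difference of 0.63 (adjusted p = 0.501, by edgeR's quasi-likelihood test), every HRasG12V library lying above every control. COX4I1, the widely expressed form of subunit 4, had 13.8, 14.1 and 18.4 CPM with HRas control and 33.5, 18.3 and 20.3 with HRasG12V, where replicate 1 alone stood far off and the difference was 0.61 (adjusted p = 0.692). UQCRB of complex III had 4.58, 2.55 and 5.44 CPM with HRas control and 12.7, 7.91 and 6.53 with HRasG12V, with no overlap and a difference of 0.99 (adjusted p = 0.501). In complex II, SDHA, the subunit that oxidises succinate, had 7.92, 9.05 and 5.58 against 10.8, 10.7 and 7.09 CPM. The 2 sets overlapped and the difference was 0.35 (adjusted p = 0.883). SDHB, the iron-sulfur subunit, had a difference of 0.04 (adjusted p = 0.997), and cox6b2 of complex IV one of -0.02 (adjusted p = 1.0), so the shift was not shared by each member.

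Split by collection day, the median log2 ratio of HRasG12V to control over members was 0.87, 0.42 and 0.40 in keratinocytes for replicates 1, 2 and 3. Over all genes tested it was 0.01, 0.00 and 0.01. Complexes I, III, IV and V were above 0 on every day. Complex V had 1.1, 0.44 and 0.36 and complex IV 1.00, 0.49 and 0.89. Complex II gave 0.76 on the day of replicate 1 and 0.00 and 0.01 on the others. All members of a day share the same pair of libraries, so they are no replicates of the ratio.

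Skeletal muscle genes moved with the construct in the same keratinocyte libraries. Their summed level was 1360, 1250 and 826 CPM with HRas control and 2640, 3300 and 2510 with HRasG12V, 9 of 16 were called higher and 0 lower, and the median difference was 1.90. Muscle is rich in mitochondria. Of the members known in mammals as heart and muscle forms, cox7a1 had 0 counts in all 6 keratinocyte libraries and cox8b was seen in 1 of them at 0.14 CPM. Neither passed the filter on low counts. Both were this low in libraries that held 826 to 3300 CPM of muscle genes, so their levels cannot report on muscle RNA here. Short genes also leaned higher, by a median of 0.23 over the 1767 genes of at most 1000 bases against -0.01 for longer genes. Members of that length had a median of 0.63 (0.51 with the length trend removed) and longer members 0.50. The part of muscle RNA in the members' levels was not tested.

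**Figure D4:**
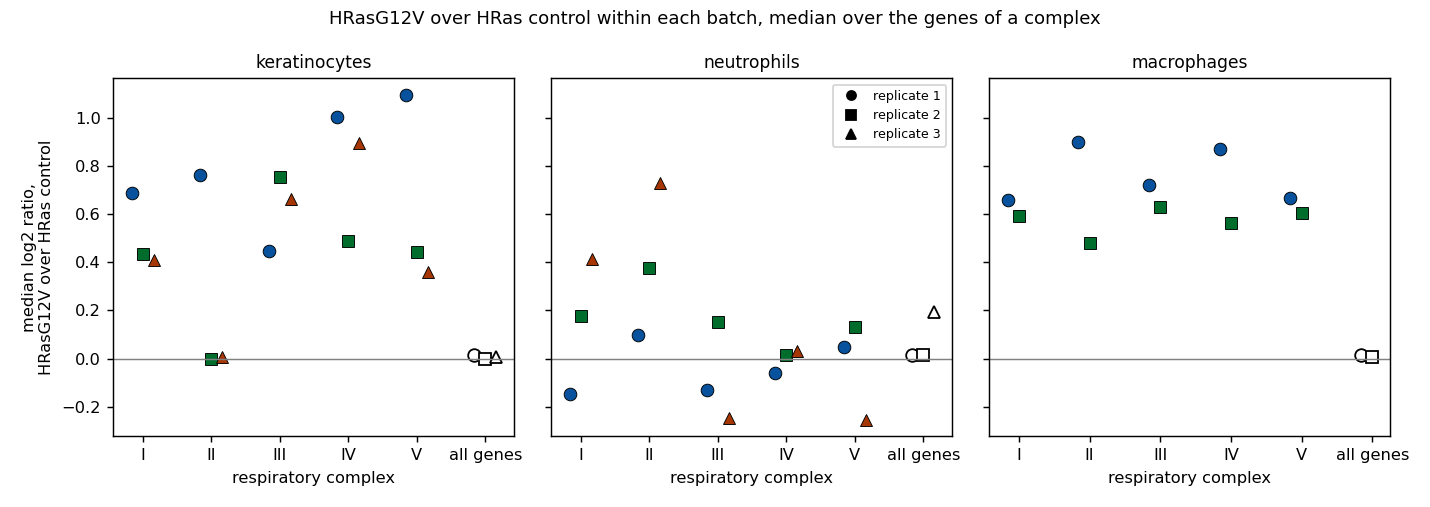
Median over members of the log2 ratio of HRasG12V to HRas control on each collection day, per complex, in keratinocytes, neutrophils and macrophages, with a line at 0. Points are days (3 in keratinocytes and neutrophils, 2 in macrophages). Keratinocytes lie at or above 0 in each complex, and macrophages above 0 on both days. Neutrophils lie on both sides of 0 except in complex II (0.10, 0.38 and 0.73), whose tested members include assembly factors.

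In neutrophils of larvae with HRasG12V keratinocytes, 0 of 88 members were called by edgeR's quasi-likelihood test (0.15% of all genes) and 0 by DESeq2. At an unadjusted p under 0.05, 2 were higher and 0 lower, against 3.92% and 3.07% of all genes. The difference was above 0 for 50 of 88, with a median of 0.03 and 0.04 over all genes. Day by day, the median was -0.07, 0.16 and 0.10, against 0.01, 0.01 and 0.195 over all genes, so replicate 3 lay below all genes. Complex II was above 0 on each day, at 0.10, 0.38 and 0.73, and the other complexes were on both sides of 0. The complex II median was taken over 7 members, among them the assembly factors SDHAF2, SDHAF3 and sdhaf1. In replicate 1 the subunits SDHA and SDHD had fewer unscaled counts with HRasG12V (119 to 99 and 24 to 8). SDHB and SDHC had more (35 to 75 and 44 to 56). A median over the subunits of complex II alone is not given. The members with the smallest p were uqcrc2a, a copy of core protein 2 of complex III, and atp5if1b. uqcrc2a had 5.62, 4.02 and 3.12 CPM with HRas control and 6.63, 8.43 and 6.05 with HRasG12V, with no overlap, a difference of 0.73 (SE 0.347) and an adjusted p of 0.691. atp5if1b had 8.78, 6.5 and 3.64 against 13.1, 7.32 and 10.5 CPM, which overlapped, with a difference of 0.75 (SE 0.362) and an adjusted p of 0.704. In the same libraries the neutrophil markers summed to 39.7, 35.4 and 12.5 CPM with HRas control and 109, 87.7 and 47.9 with HRasG12V. Photoreceptor genes went the other way, with 6 of 14 called lower and 0 higher. They summed to 322, 91.4 and 130 CPM with HRas control and 40.7, 49.8 and 29.5 with HRasG12V. The part of these cell types in the members' levels was not tested.

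In macrophages 0 of 88 members were called by edgeR's quasi-likelihood test, where 0 of all genes were (0%), and 0 by DESeq2. At an unadjusted p under 0.05, 3 were higher and 0 lower, against 1.86% and 1.16% of all genes. The difference was above 0 for 76 members, with a median of 0.44 and 0.03 over all genes. Marker genes moved with it, without a call: 16 of 16 skeletal muscle genes (median 0.84), 13 of 15 keratinocyte markers (0.59) and 13 of 14 macrophage markers (0.59) had a difference above 0. The keratinocyte markers summed to 1160 and 1270 CPM with HRas control and to 2510, 2580 and 1910 with HRasG12V, and the muscle genes to 1280 and 1130 against 2120, 1550 and 1490, so neither overlapped. Their part in the members' shift was not tested. Per complex the medians were 0.50, 0.68, 0.20, 0.43 and 0.42 from I to V. On the days with both constructs the median was 0.68 in replicate 1 and 0.58 in replicate 2, against 0.02 and 0.01 over all genes. The overall median rested on single libraries: it was 0.06 without macrophage HRasG12V replicate 2, 0.26 without HRas control replicate 1, 0.77 without HRas control replicate 2 and 0.66 without HRasG12V replicate 3. cox6c, a small subunit of complex IV, had 2.27 and 5.74 CPM with HRas control and 10.9, 12.5 and 2.52 with HRasG12V, so that replicate 3 lay within the control range. Its difference was 1.22 (SE 0.496, adjusted p = 1.0). A fit to the macrophage libraries alone called 6 members, where 1.75% of the genes tested in it were called, with NDUFA10 and cox6c among the 6 (adjusted p-values over the alternatives from 0.0449 to 1.0 and from 0.000419 to 1.0). NDUFA10 had 1.81 and 4.58 CPM with HRas control and 6.91, 7.77 and 4.78 with HRasG12V.

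The effect of HRasG12V was also compared between cell types. For neutrophils minus keratinocytes, 0 of 88 members were called by edgeR's quasi-likelihood test (0.0125% of all genes), 12 had an unadjusted p under 0.05, all with a smaller effect in neutrophils (5.22% of all genes in either direction), and the median was -0.60. Among the members with the smallest p-values were UQCR10 (-1.55, SE 0.568, adjusted p = 0.87) and NDUFS1 (-1.14, SE 0.439, adjusted p = 0.904). Macrophages minus keratinocytes gave 0 calls (0.0125%), 3 members at an unadjusted p under 0.05 (3.68%) and a median of -0.20. Neutrophils minus macrophages gave 0 calls (0.0125%), 2 members (3.66%) and a median of -0.34. DESeq2 called 0 in each. A difference in the response of these genes between cell types was therefore not detected for any member after adjustment.

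Complex IV holds the subunits with tissue forms. In neutrophils against keratinocytes cox6a1 (1.36, adjusted p = 0.0451, by edgeR's quasi-likelihood test) and cox6b1 (1.29, adjusted p = 0.0422), the forms of subunits 6A and 6B that are widely expressed in mammals, were higher. COX7A2 had a difference of 1.40 (adjusted p = 0.0713), cox8a of 0.79 (adjusted p = 0.135), COX4I1 of 0.46 (adjusted p = 0.154) and cox6b2 of 0.41 (adjusted p = 0.262). COX4I2, the form known in mammals from lung, had 0.80 (adjusted p = 0.481). The muscle form cox7a1 was seen in 4 of the 17 libraries, at 1.56, 0.13 and 0.0839 CPM in the macrophage HRasG12V libraries and at 0.0731 in a neutrophil control library. By contrast cox6b2, known in mammals from testis, stood at 4.24 to 14.1 CPM in keratinocytes and 10.7 to 17.8 in neutrophils. For the complex II assembly factors that could be tested (SDHAF2, SDHAF3 and sdhaf1), no comparison had an adjusted p below 0.389.

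The 13 mitochondrially encoded subunits differed in direction from the members in neutrophils but not in macrophages. In neutrophils against keratinocytes 0 of 13 had a difference above 0, 2 were lower and 0 higher, and the median was -0.43. The 2, named after their values were seen, were MT-ATP6 (-0.78, SE 0.230, adjusted p = 0.0204, by edgeR's quasi-likelihood test) and MT-ND5 (-0.59, SE 0.18, adjusted p = 0.0271), a subunit each of complex V and complex I. In macrophages 0 were called in either direction, 12 of 13 were above 0 and the median was 0.24. Against macrophages, 5 of 13 were lower in neutrophils and 0 higher. Of all genes, 6.36% were called lower in neutrophils against keratinocytes, and 4.67% in either direction against macrophages. With HRasG12V, 6 of 13 were above 0 in keratinocytes (median -0.04), 0 in neutrophils (-0.37) and 11 in macrophages (0.22). None of the 13 was called there, where 0.262%, 0.15% and 0% of all genes were. The ratio of the summed nuclear to the summed mitochondrial CPM was 2.44, 1.26 and 3.27 in neutrophils with HRas control and 3.34, 1.83 and 3.14 with HRasG12V. In keratinocytes it was 1.16, 1.12 and 0.692 with HRas control and 1.38, 1.93 and 1.19 with HRasG12V, and in macrophages 1.28, 1.54, 1.73, 2.11 and 0.919, controls first. The ratio was highest in neutrophils, except that both replicate 2 libraries overlapped with the other cell types. Mitochondrial ribosomes carry no tagged L10a, so these RNAs were not selected through it.

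**Figure D5:**
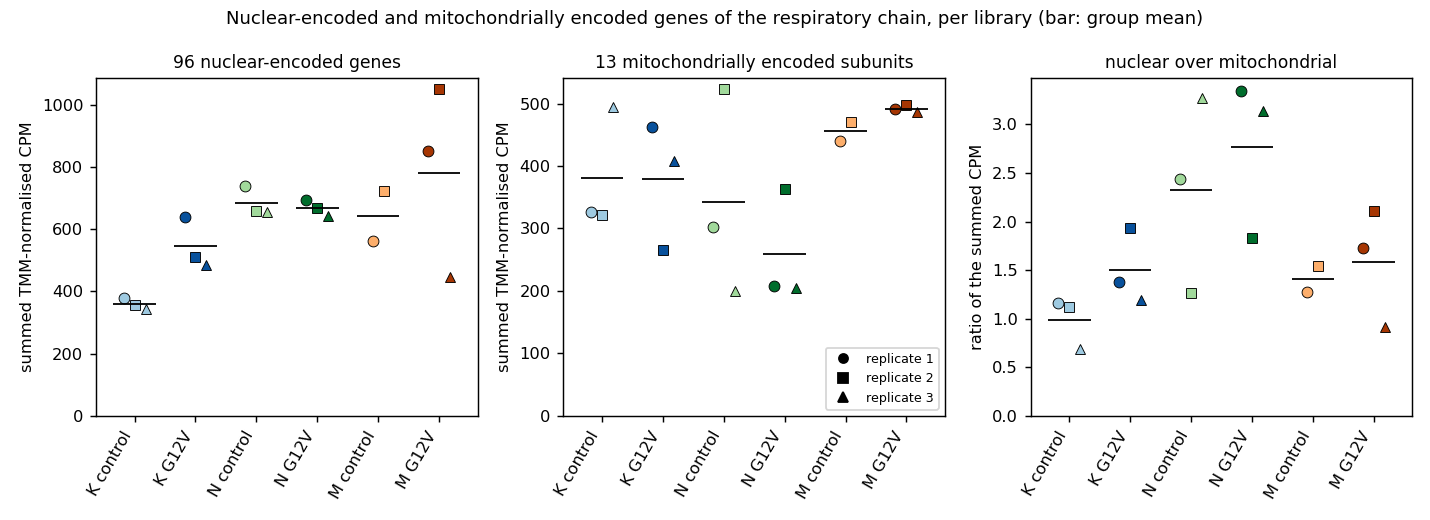
Summed CPM of the 96 nuclear members, summed CPM of the 13 mitochondrially encoded subunits and their ratio in 17 libraries, on linear axes from 0, by cell type (K, N, M) and construct. Points are libraries with a marker for each collection day and bars are group means; the ratio spans 0.692 to 1.93 in keratinocytes, 1.26 to 3.34 in neutrophils and 0.919 to 2.11 in macrophages.

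Other mitochondrial genes were set beside the members. Of all genes, 6.34% were called higher and 6.36% lower in neutrophils against keratinocytes, and 2.65% and 2.31% in macrophages against keratinocytes. Of 68 mitochondrial ribosomal proteins tested, 1 was higher and 0 lower in neutrophils against keratinocytes, with a median of 0.66, the same as that of the members, and in keratinocytes with HRasG12V their median was also 0.66 with 0 calls. Of 18 genes of the citric acid cycle and pyruvate dehydrogenase, 2 were higher in neutrophils and 3 in macrophages and 0 lower in either. Among them SUCLG1, a subunit of succinyl-CoA ligase, was 1.35 higher in macrophages (adjusted p = 0.000693, edgeR's quasi-likelihood test). Of 39 assembly factors and carriers tested, 3 were higher in neutrophils and 0 in macrophages, among them ndufab1b, the acyl carrier protein of complex I (1.33, adjusted p = 0.0123). Of 13 regulators of mitochondrial biogenesis 0 were called, with medians of 0.36 in neutrophils and 0.15 in macrophages. Glycolytic genes had 12 of 31 higher and 1 lower in neutrophils, led in abundance by ENO1 (1.52, adjusted p = 4.66e-06), and 3 higher and 1 lower in macrophages. The cytosolic ribosomal proteins went the other way in neutrophils, with 10 of 94 lower and 1 higher and a median of -0.28. With HRasG12V in keratinocytes, however, 90 of these 94 were above 0 (median 0.48), as were 23 of 31 glycolytic genes (0.57). The medians there were 0.34 for the citric acid cycle list, 0.15 for assembly factors and carriers and -0.06 for biogenesis regulators. None of these lists held a call, and a rise with HRasG12V was not particular to mitochondrial genes.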

How the data were processed

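TRAP RNA was amplified, sequenced as single-end reads on an Illumina HiSeq, aligned to GRCz10 with Bowtie 1.1.1 and quantified per gene with RSEM 1.2.20, per the labels and the study's methods; the annotation release is not given in the sources used here. The authors deposited expected counts, TPM and FPKM for each library, without further normalization of the counts. RSEM divides reads among genes, so members with close copies (such as the genes that share the symbols COX5B, COX6A1 and SDHD) are uncertain. The expected counts were rounded and fitted with edgeR 4.0.16 in R 4.3.3: filterByExpr over 6 groups, TMM factors, group plus collection day, quasi-likelihood tests, and Benjamini-Hochberg adjustment over 16011 genes with a threshold of 0.05. TMM leaves amplification and the large share of a few features in the totals. Cell types were compared as means over both constructs. TPM served for length-aware sums, gene lengths are RSEM's, and FPKM was not used. The SE is the log2 difference divided by the root of the F statistic.

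The replicate number was kept in the model as in the study, which entered it for possible batch effects. The labels give the replicate number, and the study gives 3 separate days of collection. The number was read here as the collection day. For the 8 days and cell types with both constructs, the paired libraries' deviations from group means correlated with r between -0.10 and 0.33 across 5000 genes. Members and gene lists were chosen with earlier results of these data known. Named genes were the 3 members per complex with the highest mean TPM, up to 5 per direction and comparison with the smallest adjusted p (where none passed, the 3 lowest by p), tissue forms of complex IV, members that are no subunit and, in other lists, the 2 with the highest mean TPM. Others are named as exceptions, and 1 member that the rule names is not reported here. No promoter or protein sequence was used here. Lists describe counts and medians without a test.

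Alternatives were DESeq2 size factors, library size alone, all genes with at least 1 count, DESeq2 1.42.0 and only genes averaging 50 counts or more. Others were no replicate block, all 18 libraries, a length-trend offset fitted by local regression (loess) and no 10 most abundant features. The rest were 1 construct or 1 cell type alone, TPM sums, medians over members, and each library left out. Leaving out a whole day, or both keratinocyte libraries of replicate 2, was added after seeing the data. In simulated data of 16011 genes, 200 were changed 4-fold with HRasG12V in keratinocytes and a separate 200 in neutrophils. Both sets were drawn from genes averaging 20 counts or more. Of the first set, 172 were recovered for HRasG12V in keratinocytes with 5 other calls. Of the second, 199 were recovered for neutrophils against keratinocytes with 13 other calls. Smaller changes, such as the members' median of 0.61 with HRasG12V in keratinocytes, were not simulated, so their recovery is not known.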

Additional observations from a re-analysis of the deposited data

How the results depend on the processing

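No direction reversed for any named member past the threshold. The replicate block groups libraries of the same replicate number, read here as the collection day. Without the block the median HRasG12V difference in macrophages was 0.35. Macrophages against keratinocytes then had 17 members called, while neutrophils had 22. For neutrophils against keratinocytes (22 called), 13 were called with a mean of at least 50 counts, 10 with the length-trend offset, 8 with HRas control libraries alone, 0 with HRasG12V libraries alone and 7 without both keratinocyte libraries of replicate 2. For macrophages against keratinocytes (9 called) the same settings gave 3, 6, 2, 1 and 4. Library size alone gave 42, all genes of at least 1 count 23 and DESeq2 14. Shares of all genes called are given above for the length-trend offset, for either construct alone and for single libraries left out. They are not given for the other settings of this paragraph, so those counts are not set against all genes. Leaving out libraries or days gave 7 to 30 and 0 to 30 calls (24 in macrophages without the day of replicate 3), and medians of 0.60 to 0.77 and 0.25 to 0.93.

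Under library size alone the medians became 1.19 (neutrophils) and 1.58 (macrophages) against keratinocytes, 1.00, 0.45 and 1.23 for HRasG12V in keratinocytes, neutrophils and macrophages, 0.18 for the effect in macrophages minus keratinocytes and -0.76 for neutrophils minus macrophages. All genes shifted too, to medians of 0.57, 0.91, 0.39, 0.49, 0.76, 0.34 and -0.26. For HRasG12V, keeping all genes with at least 1 count called 1 member in keratinocytes (atp5if1a). The length-trend offset gave -0.13 in neutrophils and 0.27 in macrophages. Macrophage libraries alone gave 6 calls and a median of 0.65, and all 18 libraries 0.52. With libraries or days left out, HRasG12V gave 0 calls, with medians of 0.44 to 0.79 in keratinocytes, -0.068 to 0.155 in neutrophils and 0.057 to 0.77 in macrophages (0.196 without the day of replicate 1 and 0.66 without that of replicate 3). Neutrophils against macrophages gave -0.22 to 0.40. Differences of the effect gave -0.73 to -0.40 (neutrophils minus keratinocytes), -0.55 to 0.14 (macrophages minus keratinocytes) and -0.71 to 0.012 (neutrophils minus macrophages, -0.66 without the day of replicate 3).

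Deposited TPM gave wider ratios of summed levels than CPM. Unlike the CPM used here, deposited TPM carries no TMM factor. Over all members, macrophage HRasG12V replicate 2 summed to 2758 TPM and 1049 CPM, at a TMM factor of 2.45. Keratinocyte HRasG12V replicate 2 summed to 168.5 TPM and 509.9 CPM, at a factor of 0.456. No TPM ratio over all genes is given, so these ratios are not set against all genes. For HRasG12V in keratinocytes, TPM ratios were 2.11, 2.61, 2.48, 2.44 and 2.26 for complexes I to V and 2.29 over all members, where CPM gave 1.45, 1.29, 1.53, 1.6, 1.53 and 1.51. Neutrophils over keratinocytes gave 2.31, 1.95, 2.28, 2.26, 2.20 and 2.24, and macrophages over keratinocytes 3.43, 3.83, 3.72, 3.92, 3.60 and 3.64. For HRasG12V over control in neutrophils the ratio over all members was 0.977 by CPM and 1.43 by TPM (1.28 to 1.62 by complex), in macrophages 1.22 and 2.76, and for neutrophils over macrophages 0.931 and 0.615. The median CPM over tested members, in place of the sum, gave 2.29 for complex II in macrophages over keratinocytes. For complex IV it gave 2.20 for HRasG12V over control in keratinocytes. The cause of the wider TPM ratios was not tested. Depth limits single members most in keratinocyte controls, where the 96 members share 1265 to 2454 counts; amplified reads are not independent molecules.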
